A study of Drosophila melanogaster with 4 samples.

Results

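Among the spots of a 2-colour fruit fly array, 213 had a signal at least 4 times higher in adult males than in adult females on each of 2 slides while the female signal itself was above that of the median spot in both female samples. They are described here as strongly male-biased transcripts still expressed in females, and they make up 0.971% of the 21928 spots that carried no flag, out of 22575 on the array. The members were chosen on their measured signals: the mean spot intensity minus the mean local background, divided by the median of that net signal over the unflagged spots of the same sample, had to exceed 125% of the median spot in both female samples, and the ratio of the male to the female value had to reach 4 on the slide with wash and on the slide without wash. This quantity is called the relative signal below, and a value of 1 is the median spot of that sample. Since these signals chose the members, every male/female value given for them is a description and carries no test.

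The samples are total RNA from pooled adult Drosophila melanogaster. There are 2 samples of males and 2 of intact females, of a single genotype that the sources used here do not name further. For each sex, 1 sample was handled with a wash and 1 without, and the study's title concerns the choice of a wash solution. With wash, the male sample carried Cy5 and the female sample Cy3. Without wash, the male sample carried Cy3 and the female sample Cy5. Each wash state is thus 1 slide with 1 dye orientation. The age of the flies, the number in a pool, the tissue beyond the whole adult named by the labels and the nature of the wash are not stated by the labels. Whether the 2 samples of a sex came from separate pools is not stated either, so they cannot be taken as biological replicates.

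Sex differences in the adult fly transcriptome arise below the splicing cascade that runs from Sxl through tra to dsx and fru, and most of the strongest male bias in whole animals comes from the reproductive tract, where the testis and the accessory gland express many transcripts that females lack. The transcripts described here are set apart from such male-only ones in that the female samples also gave a signal above the limit at their spots. How much of that signal is transcript of the spot's own gene was not tested. The gene ID field is blank at every spot, so members are named by their row and column on the array and no function, cell type or chromosome is assigned to any of them. In RNA from pooled animals, a lower female signal from fewer expressing cells and one from less RNA per cell cannot be told apart.

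The members were bright spots in males and moderately bright spots in females. Their median relative signal was 17.1 in males with wash (lowest 5.45, highest 384) and 20.2 in males without wash (5.05 to 551). In females the median was 2.01 with wash (1.253 to 18.6) and 3.39 without wash (1.254 to 49.4). Both male values lay above both female values at all 213 members, an ordering that 25.3% of the unflagged spots showed and that follows from the choice of members.

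**Figure D1:**
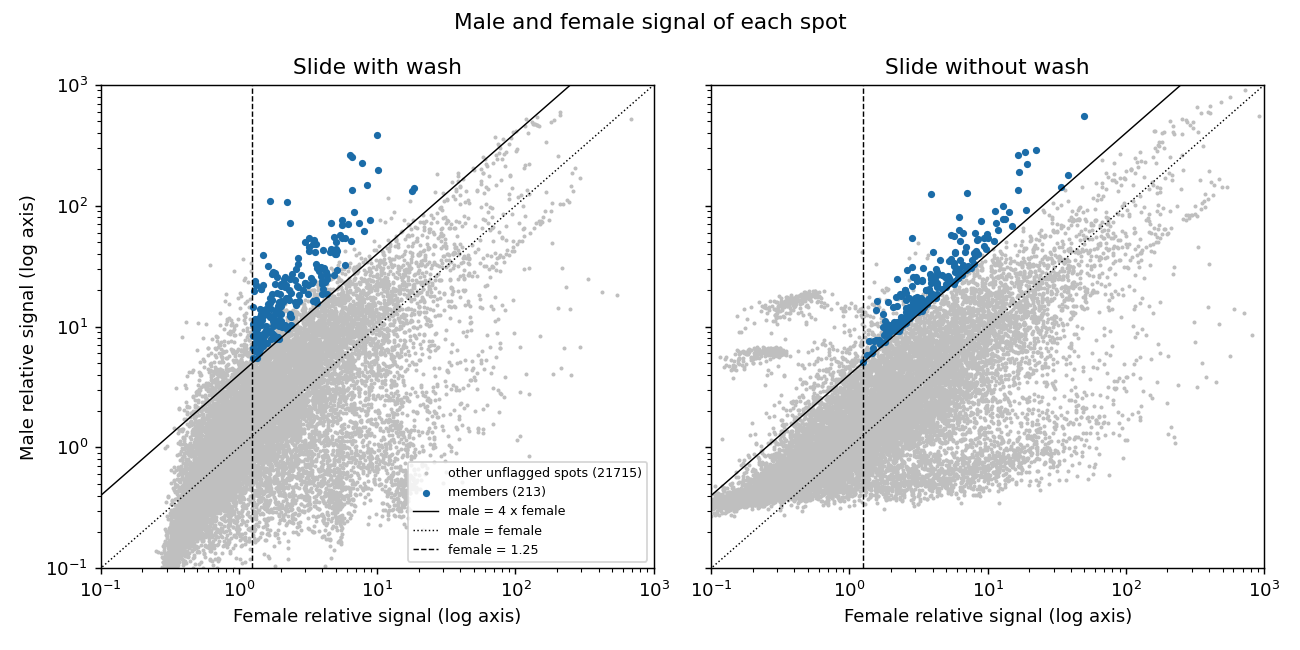
Relative signal of males (vertical) against females (horizontal) for each unflagged spot on the slide with wash (left) and the slide without wash (right), both axes logarithmic. The 213 members (blue) lie above the solid line of a 4-fold male excess and right of the dashed line of the female limit, the other 21715 spots are grey, and spots below 0.1 in either sex (281 with wash, 68 without) fall outside the axes.

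Every member was well above its local background in every sample, in females as well. The lowest ratio of spot signal to local background was 12.7 in males with wash, 11.9 in males without wash, 3.99 in females with wash and 2.57 in females without wash. Signal at 2 times background or more was found at all 213 members in each sample. Over the unflagged spots the share was 73.9% and 86.5% in males with and without wash, and 91.8% and 55.1% in females. The limits of the rule set a lowest net signal in each sample, so this outcome follows largely from the choice of members. No member reached the scanner's ceiling: 0 of 213 had a median pixel of 65000 or more, and the highest was 46685.

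Ranked among all unflagged spots of a sample, the median member stood at percentile 95.6 in males with wash and 95.9 in males without wash, against 70.2 in females with wash and 75.5 in females without wash. In males, 110 of the 213 members were among the top 5% of spots in both samples. In females, 2 members were. Most members thus ranked near the top in males and in the upper middle range in females.

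The size of the male excess was moderate for most members. The median male/female ratio was 7.63 on the slide with wash (quartiles 5.72 and 10.001) and 5.03 on the slide without wash (4.47 and 6.42). On both slides together, 102 members reached 5-fold, 65 reached 6-fold, 29 reached 8-fold, 16 reached 10-fold, 3 reached 16-fold and 1 reached 32-fold. In all, 474 unflagged spots (2.16%) had a ratio of 4 or more on both slides. Of these, 261 were not members because the female relative signal did not exceed the limit, on both slides at 160 spots, on the slide with wash alone at 95 and on the slide without wash alone at 6. Female signal above the limit on both slides was thus found at 44.9% of the strongly male-biased spots.

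The largest male excess was at row 59, column 183. Its relative signal was 109.5 in males with wash and 125 in males without wash, against 1.67 in females with wash and 3.90 in females without wash. The ratio was 65.8 with wash and 32.01 without wash, a mean log2 ratio of 5.52 ± 0.73 (SD, n = 2 slides). In males this spot stood at percentile 99.5 in both samples, while in females it stood at 65.7 with wash and 77.8 without wash. Next came row 37, column 128, with 107 and 127 in males with and without wash, against 2.23 and 7.11 in females, and ratios of 48.1 and 17.8. At both spots the 2 male samples lay close together and the 2 female samples differed by more than 2-fold. The higher female value was on the slide without wash.

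Of the 10 members with the largest excess, 5 also held the 5 highest male levels, and 3 of these were among the 5 with the highest female levels. Row 63, column 199 had the highest mean level of all members in males and in females, with 384 and 551 in males with and without wash, against 9.96 and 49.4 in females. In females with wash it was below row 69, column 95, row 23, column 58 and row 49, column 25, all given below. Its ratio was 38.5 with wash and 11.1 without wash, the largest disagreement between slides of any member at 1.79 on the log2 scale. Row 53, column 62 had 227 and 290.1 in males, against 7.78 and 22.3 in females with and without wash, with ratios of 29.2 and 13.0. Row 49, column 25 had 198 and 222 in males, against 10.1 and 19.2 in females, with ratios of 19.5 and 11.6. At each of these spots the male and female values stayed far apart, although the female values were well above those of the typical member.

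A pair of spots in this set had nearly the same values throughout. Row 78, column 110 had 265 and 279 in males with and without wash, against 6.35 and 18.6 in females. Row 79, column 136 had 253 and 264 in males, against 6.55 and 16.5 in females. In no sample did the 2 spots differ by more than 1.12-fold, and their ratios were 41.7 and 38.6 with wash and 15.0 and 15.97 without wash. The likeness was seen after the values were known, and whether the spots hold related sequences was not tested.

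The other 3 of the 10 combined a large excess with lower levels. Row 72, column 175 had 39.3 and 53.8 in males with and without wash, against 1.501 and 2.82 in females. Its ratios of 26.2 and 19.1 made it one of the 3 members over 16-fold on both slides, beside the 2 largest. Row 13, column 103 had 71.7 and 81.2 in males, against 2.33 and 6.25 in females, and row 42, column 40 had 31.5 and 41.7 in males, against 1.61 and 4.04 in females. Their ratios with and without wash were 30.8 and 13.0, and 19.5 and 10.3. Among these 10 spots the male levels spanned from 31.5 to 551, and the ratio exceeded 10 on both slides at each of them.

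High female levels also occurred with a smaller male excess. Row 69, column 95 had 140.4 and 178 in males with and without wash, against 18.6 and 38.1 in females, with ratios of 7.56 and 4.68. Row 23, column 58 had 133 and 142 in males, against 18.0 and 34.1 in females, with ratios of 7.40 and 4.18. These were the 2 members in the top 5% of spots in both female samples. Both stood close to the 4-fold limit on the slide without wash, whereas row 59, column 183, of similar male level, had a far lower female signal.

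**Figure D2:**
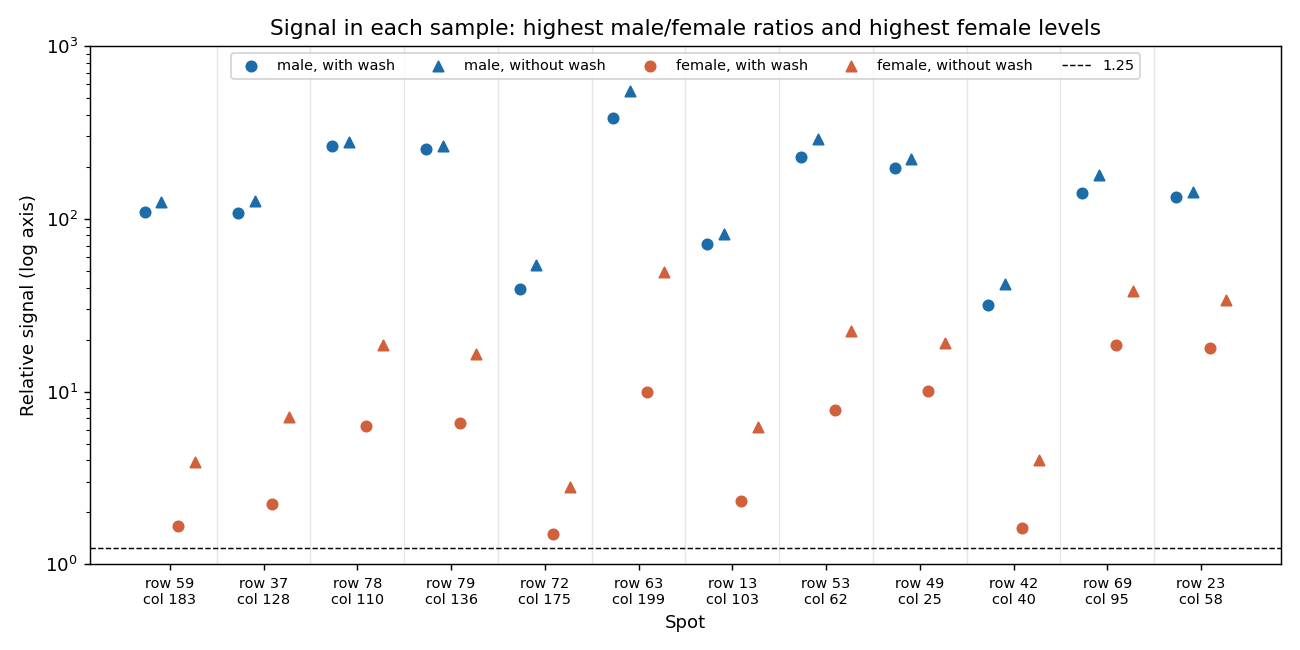
Relative signal (logarithmic axis) in each of the 4 samples for the 10 members with the largest male/female ratio and the 2 further members with the highest female levels, ordered by mean ratio. Male values (blue) lie above female values (orange) at every spot, and at each spot the female value without wash (triangle) is above the female value with wash (circle); the dashed line is the female limit.

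Across the members, higher female signal went with higher male signal and not with a smaller ratio. In the 71 members with the lowest mean female level (1.30 to 2.17), the median of the mean male level was 9.44 and that of the mean ratio was 5.30. In the middle 71 (2.20 to 3.94) these were 16.7 and 6.23, and in the highest 71 (4.06 to 29.7) they were 43.6 and 7.03. The 11 members with a mean male level of at least 100 had a median mean ratio of 19.5, against 6.04 in the other 202. The rule asks for a male value of at least 4 times the female one, so a male level that rises with the female level follows largely from the choice of members. The ratio and the male level also share the male signal, so this is a description of the set. Over the 213 members the log2 male levels of the 2 slides correlated with r = 0.98 and the log2 female levels with r = 0.91. Males and females correlated with r = 0.82 on the slide with wash and 0.92 on the slide without wash. These correlations are across spots that share samples and slides and were selected for their levels, and they carry no test.

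At the edge of the set, values changed little between members and non-members. Just inside the ratio limit, row 4, column 209 had ratios of 4.68 with wash and 4.004 without wash, row 87, column 120 had 5.45 and 4.01, and row 71, column 30 had 5.13 and 4.03. Just outside, row 72, column 117 had 5.42 and 3.97, row 84, column 11 had 7.27 and 3.97, and row 60, column 143 had 5.68 and 3.97. All 6 were decided by the slide without wash. Just inside the female limit, the lower female value was 1.253 at row 48, column 136 and at row 6, column 33 (both with wash), and 1.254 at row 58, column 41 (without wash). Just outside it was 1.24 at row 91, column 128, 1.23 at row 5, column 50 and 1.22 at row 91, column 36. Row 5, column 50 shows how the female limit divides similar spots: with 28.9 and 40.5 in males, against 1.23 and 2.97 in females, its ratios of 23.5 and 13.6 would have placed it among the 10 largest.

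The male/female ratio of relative signals was larger on the slide with wash at 198 of the 213 members, by a median of 0.54 on the log2 scale. Over all unflagged spots it was larger with wash at 10816 of the 21925 with a log2 ratio on both slides. At the members the difference lay mostly in the female samples. With wash minus without wash, their median log2 difference was -0.21 in males and -0.77 in females. In males 185 members (86.9%) were lower with wash, against 71.7% of all unflagged spots. In females 204 members (95.8%) were, against 58.7%. Over all unflagged spots the medians were -0.30 in males and -0.20 in females. At the 239 spots of the mirrored rule described below the medians were 0.07 in males and -0.79 in females, with 238 lower with wash in females. A lower female signal with wash is thus not particular to the members. Beside the brightest member, wide disagreements were found at spots whose male values were steady: row 20, column 32 had 135 and 135 in males, against 6.57 and 16.5 in females with and without wash, and row 105, column 191 had 22.3 and 22.1 in males, against 1.49 and 4.31 in females. At both spots the male samples were alike and the female value without wash was the higher one. The ratios were 20.5 and 8.17 at the first and 14.99 and 5.11 at the other. The last of these spots lies in the corner where local background was raised without wash. Row 93, column 212, given next, lies there too, but its own background without wash was below the median of all unflagged spots in both sexes. Exceptions to the disagreement between slides existed. Row 93, column 212 had 22.6 and 24.7 in males with and without wash, against 2.01 and 2.20 in females, and ratios of 11.2 on both slides. Row 2, column 166 and row 48, column 136 likewise differed between slides by less than 0.01 on the log2 scale.

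Brightness moved with this difference over the whole array. All unflagged spots were divided into 10 brightness groups by mean log2 level. In each group, the spots that met neither the rule nor its mirror image (female relative to male) were then taken. Their log2 male/female ratio with wash minus without wash had a median of 0.69 in the brightest group and 0.56 in the next, but -1.75 in the dimmest. All members lay in the upper 3 groups, 106 in the brightest, 94 in the next and 13 in the one after. Dye, wash and slide change together between these samples and cannot be told apart. After background correction with an offset and intensity-dependent loess normalization within each slide, which removes trends of this kind, the median ratio of the members was nearly the same on both slides, at 2.02 with wash and 2.03 without wash (log2), and the ratio was larger with wash at 89 of 213.

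**Figure D3:**
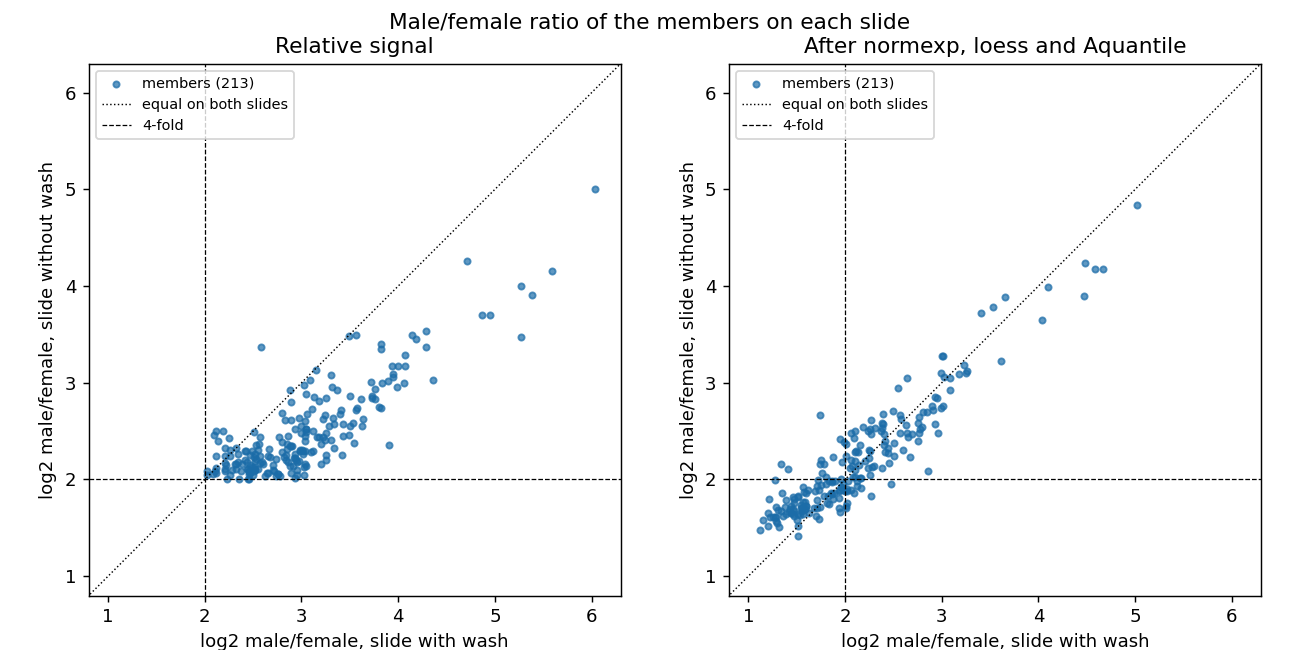
Log2 male/female ratio of each of the 213 members on the slide with wash (horizontal) and the slide without wash (vertical), from relative signals (left) and from normexp, loess and Aquantile normalized values (right). Most points lie right of the dotted line of equality on the left, where the median is 0.54 higher with wash, and around the line on the right; dashed lines mark 4-fold, which 98 members pass on both slides after normalization.

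The same normalization made the male excess of the members smaller. Their median log2 difference, males minus females, was 2.04 (quartiles 1.69 and 2.45, range 1.30 to 4.93), against 2.61 for relative signals, and over all unflagged spots it was -0.0063. With the same background correction and offset but median scaling only, the median difference was 2.42. On this scale 109 of the 213 members were 4-fold or more higher in males on the mean of the slides and 98 on each slide, against 0.848% and 0.725% of all unflagged spots, and all 213 were over 2-fold on each slide. The order of the largest members was kept at the top, with row 59, column 183 at 4.93, row 37, column 128 at 4.42 and row 78, column 110 at 4.38. In limma, 15.1% of all tested spots were higher in males (Benjamini-Hochberg adjusted p under 0.05), and the 213 members were among them; the rule used this contrast, so nothing is read from that count. Between slides, the normalized log2 ratio of a member differed by a median of 0.19, against 0.12 over all unflagged spots. At the spots of the mirrored rule described below the median was also 0.19, so the larger value is not particular to the members.

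The pixels within the spots gave a further description. The rule used the mean pixel intensity but not the median, so the values below are shaped by the choice of members. The ratio of mean to median net pixel intensity had a median of 0.830 at the members in males with wash, 0.782 in males without wash, 0.962 in females with wash and 0.882 in females without wash. Over all unflagged spots it was 1.15, 0.925, 1.01 and 0.962 in the same samples. The mean was below the median at 198 of 213 members in males with wash and 212 in males without wash, but at 129 in females with wash and 210 in females without wash. Such spots were not counted over the whole array, where the medians of 0.925 and 0.962 without wash also place the mean below the median. The spots of the mirrored rule described below, which are bright in females, had medians of 0.948 and 0.871 in males with and without wash and 0.794 and 0.792 in females. Of these 239 spots, the mean was below the median at 152 and 236 in males with and without wash and at 234 and 237 in females. Low values are thus not particular to the members. With median in place of mean pixels, 318 spots met the rule, 208 of them members.

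The members were spread over the array. They lay in 83 of the 105 rows, with at most 8 in 1 row, and 0 of the 213 had another member in the neighbouring column of its row. The first 35 rows held 71 members, the middle 35 rows 74 and the last 35 rows 68. The corner where local background was raised without wash, made up of the final 26 rows and final 61 columns, held 7 members (3.29%), against 5.80% of the unflagged spots. Median local background at the members was 40.5 and 23.2 intensity units in males with and without wash and 24.1 and 41.2 in females, against 39.9 and 23.1 in males and 24.3 and 41.1 in females over all unflagged spots. Of the 425 unflagged spots that were at least 8-fold brighter in Cy3 than in Cy5, 0 were members. The rule asks for a 4-fold male excess also on the slide where males carried Cy5. Such spots could hardly meet it, so nothing is read from that count.

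**Figure D4:**
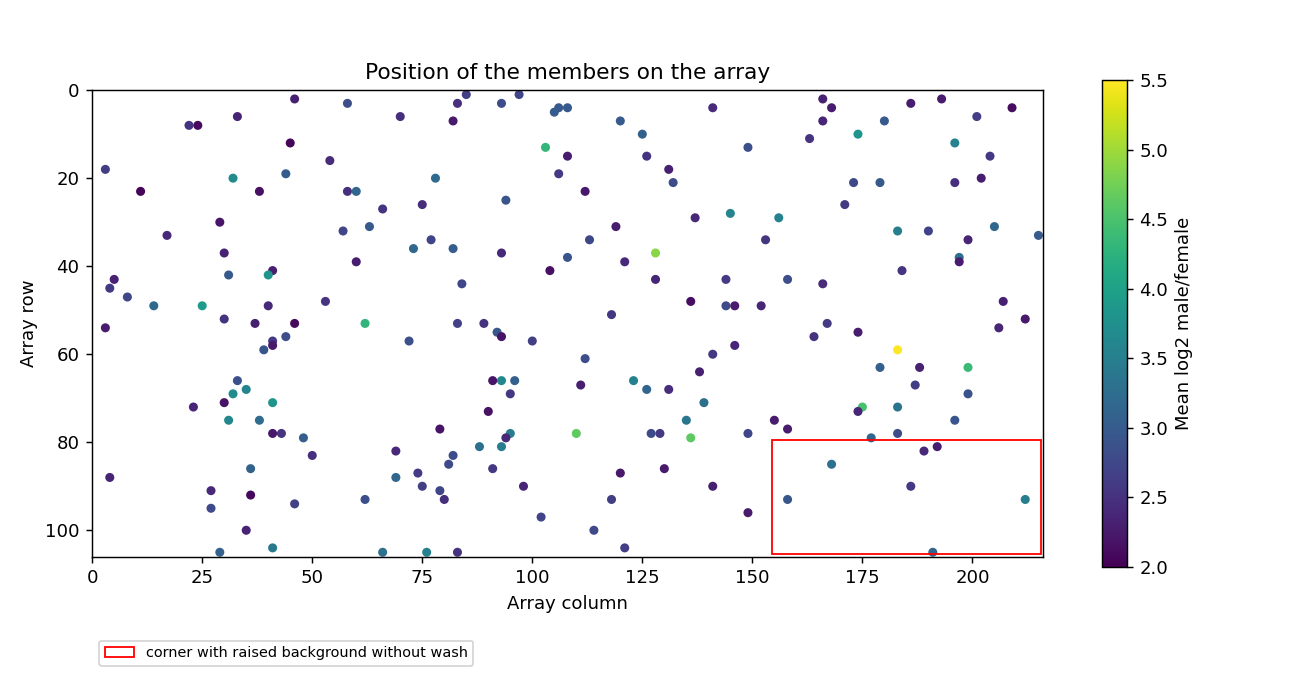
Position of the 213 members on the array by column (horizontal) and row (vertical), coloured by mean log2 male/female ratio of relative signals. Members lie in all parts of the array, 7 of them inside the red outline of the corner with raised background on the slide without wash.

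Set against the mirror image of the rule, the male bias of this set was smaller. The mirrored rule (relative signal above the same limit in both male samples, female/male ratio of at least 4 on each slide) found 239 spots. The 213 members were 2.62% of the 8132 spots above the limit in both female samples, against 2.93% for the 239 mirrored spots among the 8156 above it in both male samples. An excess of 8-fold on both slides was reached by 29 of the 213 members and by 122 of the 239 mirrored spots, and one of 16-fold by 3 and 45. The male/female ratio moved the same way between slides in both sets. It was larger with wash at 198 of the 213 members and at 237 of the 239 mirrored spots. The median log2 difference was 0.54 at the members and 0.88 at the mirrored spots. The female excess of mirrored spots was therefore larger with wash at only 2 of 239. After loess and Aquantile, the male excess was larger with wash at 89 of 213 members, and the female excess at 85 of 239 mirrored spots. Since both sets were chosen on these ratios, their difference was not tested.

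The difference between the slides, with wash minus without wash and averaged over the sexes, was not itself part of the rule but comes from the same 4 signals. Both limits had to be met on each slide, so spots with a low signal on 1 slide could not be members, and the values and counts below are shaped by that choice. With 1 slide for each wash state, wash and slide cannot be told apart. After normalization, which centres the slides, the median log2 difference of the members was -0.05 (quartiles -0.17 and 0.07), against -0.07 over all unflagged spots (-0.21 and 0.12). The value depended on the scaling: it was -0.48 with plain subtraction, against -0.31 over all spots. With no normalization it was 0.058, against 0.08 over all spots, and it was 0.065 in the authors' deposited table, against 0.24. After loess and Aquantile, the median of the members was -0.07 in males and -0.03 in females. In limma with sex as a term, 0 of the 213 members and 0% of all 21928 spots passed an adjusted p of 0.05 for slide, and at an unadjusted p under 0.05 there were 16 members (7.51%), against 35.9% of all spots. Among the brighter 50% of spots alone, which hold all members, there were 23 members (10.8%), against 20.7% of 10964 spots. With the Cy3-bright spots left out, 8 members (3.76%) passed the adjusted threshold, against 21.1% of the 21503 spots then tested. Of the 8, 6 were higher and 2 lower with wash, against 10.7% and 10.4% of the tested spots. The parts of the choice of members, of brightness and of the disagreement of ratios between slides in these shares were not tested. Nothing particular to the members is read from the shares.

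The members that differed most between slides did so in the same direction in both sexes. They were picked on the difference averaged over the sexes, which favours a shared direction, so nothing is read from that likeness. Row 105, column 83 had a relative signal of 29.2 with wash and 20.3 without wash in males, and of 5.11 with wash and 3.60 without wash in females. Its normalized log2 difference was 0.87 (SE 0.14), with limma adjusted p = 0.082 over all spots and 0.023 without the Cy3-bright spots. Row 54, column 3 and row 92, column 36 were higher with wash by 0.85 (SE 0.13, limma adjusted p = 0.081) and 0.76 (SE 0.13, limma adjusted p = 0.085). With median in place of mean pixels these differences were -0.12 at row 54, column 3 and 0.10 at row 92, column 36. Lower with wash were row 63, column 199, at -0.85 (SE 0.19, limma adjusted p = 0.0999), row 71, column 139, at -0.49 (SE 0.12, limma adjusted p = 0.106) and row 56, column 44, at -0.40 (SE 0.11, limma adjusted p = 0.126). Row 63, column 199 is the brightest member, and its slide difference was -0.56 in males and -1.13 in females. None of these 6 passed the threshold over all spots, and 5 of them did without the Cy3-bright spots, all but row 56, column 44.

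**Figure D5:**
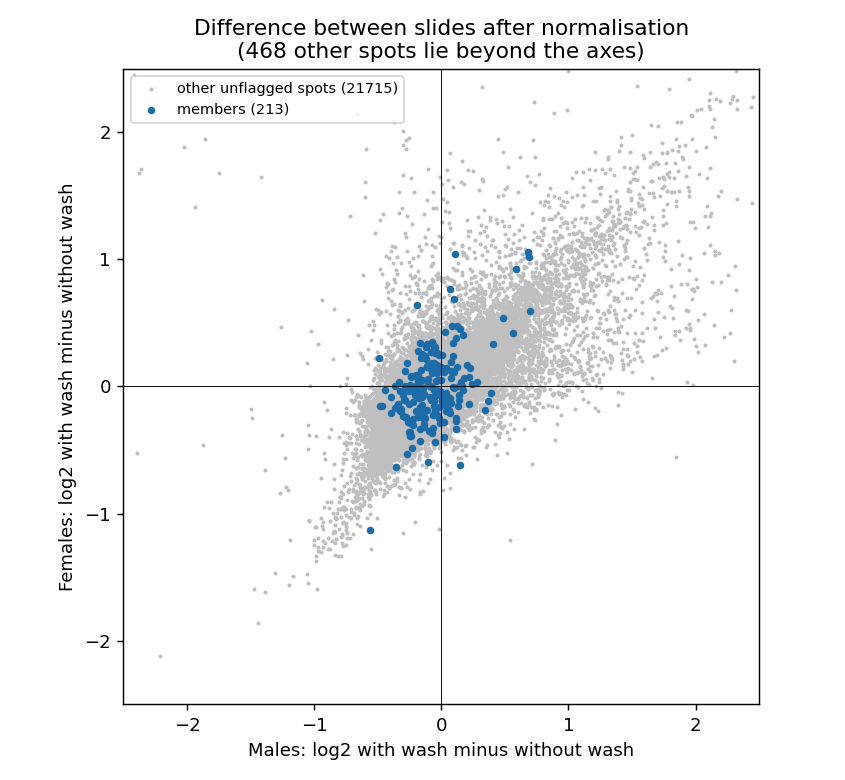
Log2 difference between the slides, with wash minus without wash, in males (horizontal) and in females (vertical) after normalization, for the 213 members (blue) and the other 21715 unflagged spots (grey), of which 468 lie beyond the axes. The members gather near 0, with medians of -0.07 in males and -0.03 in females.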

How the data were processed

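Total RNA of pooled adult flies was hybridised on 2-colour arrays, and the authors' deposited scanner files give spot and local background pixel intensity (mean, median and mode) per spot and dye with no background subtracted, per the file headers. The image software, scanner and array maker are not stated by the labels. The values of the authors' deposited table are the natural log of the net mean signal, unscaled (no entry differed from the scanner files by more than 8.96e-08), with medians of 4.48 and 3.92 in males and 4.09 and 3.94 in females with and without wash.

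Spots flagged in any file (647) were left out, and members were found with Python 3.11.15. For the model, mean pixel intensities were corrected with normexp (offset 50), normalized by loess within and Aquantile between slides, and fitted as log2 values per channel in limma 3.58.1 (R 4.3.3; sex and slide as terms, eBayes with intensity trend, Benjamini-Hochberg over all unflagged spots). Each spot kept 1 residual degree of freedom, or 2.86 with the prior. P-values rest on 2 samples of each sex, whose dye and slide differ as well, and the number of arrays limits the precision. Tested on simulated data, the fit recovered most changes when a large share of the spots changed but made no calls when few did, so 0 calls do not show that no spot differed.

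The members and lists were chosen with earlier results of these data known. Spots were named by a rule: the 10 largest ratios, the 5 highest levels in each sex, the 5 largest and 3 smallest disagreements between slides, 3 spots on each side of each limit, and the 3 highest and 3 lowest slide differences. Alternatives covered the pixel statistic, scaling, thresholds, the prior, the slide term and each sample left out.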

Additional observations from a re-analysis of the deposited data

How the results depend on the processing

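The number of members was 213. It was 464 and 102 with a ratio limit of 3 and 5, 106 with a female limit of 2, and 118 with normexp, loess and Aquantile (98 shared). On the slide with wash alone it was 563 and on the slide without wash alone 346. Leaving out each sample in turn gave 247 to 563. The other 5 alternatives gave 208 to 318, 318 with median pixels. The median log2 male minus female difference of the members, 2.04, was 2.61 with plain subtraction, 2.36 with quantile normalization, 2.42 with median scaling only, 2.62 with no normalization, 2.25 with median pixels and 2.88 in the authors' value table. Over all spots, 7322 passed for sex (3306 higher in males), but 50 with no normalization, 3432 in the value table and 4683 with no replicate block, which here is the slide pairing. Leaving out each sample, which also drops the slide term, gave 2783 to 4161, to be set beside the 4683. The slide term had 0 calls, but 2098 with plain subtraction, 2701 with median scaling only, 2751 in the value table and 4541 without the Cy3-bright spots, where 8 members were called. The median slide difference of the members, -0.05, was -0.48 with plain subtraction, -0.22 with median scaling only, 0.058 with no normalization and 0.065 in the value table, where the medians of all spots were -0.31, -0.19, 0.08 and 0.24. Row 54, column 3 changed from 0.85 to -0.12 with median pixels, and row 92, column 36 from 0.76 to 0.10. The cause of these changes was not tested. With 1 sample left out, the slide term kept no residual degree of freedom, so its calls were not counted. None of the 28 named spots reversed its male excess. They were picked at or close to a 4-fold male excess on each slide, so this follows largely from the choice. Of their 448 values under the alternatives, 176 moved by the spot's SD between slides or more.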
